A study of Mus musculus with 3 samples.

Results

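Malat1 is a long non-coding RNA that stays in the nucleus, and the AGO2 peaks in its gene span were read from 4 peak lists of P19 cells. The peaks described were chosen by position: all peaks, on either strand, whose midpoint lies in the Malat1 gene span on chromosome 19, 5795690 to 5802672 (mm10, positions counted from 1), a length of 6983 nt. There were 19 such peaks of 6911 in the 4 lists. P19 is a mouse embryonal carcinoma line, and the 3 libraries, AGO2 HITS-CLIP with the antibody clone 2D4, form 1 group with no treated or control group. HITS-CLIP fixes RNA to its bound proteins by ultraviolet light in living cells, isolates 1 protein with an antibody and sequences the RNA pieces that come with it. The authors gave 1 list for each of the peak callers PIPE-CLIP, Pyicoclip, CIMS and Piranha, and no list is tied to 1 library. There is thus no depth per library and no spread between libraries, and the lists, which come from the same reads, are not replicates. Malat1 itself was selected on the number of its peaks, so their presence, numbers and scores are given as a description, with no test.

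Argonaute proteins carry microRNAs to RNAs that pair with the microRNA seed, and in the cytoplasm this represses mRNAs. Malat1 is abundant in many cell types and gathers in nuclear speckles, bodies rich in splicing factors. Its 3′ end is made by RNase P, which cuts off a small tRNA-like RNA called mascRNA, and a triple helix then guards the end of the long RNA. In human cells, miR-9, loaded on Argonaute in the nucleus, has been reported to lower MALAT1.

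Malat1 lies on the minus strand, so its RNA starts at position 5802672 and runs towards lower coordinates. The window around that start shows the point from which all distances below are counted. It is chr19:5802623-5802722, minus strand, from RefSeq on GRCm38.p6, with the 50 bases before the start in lower case and the first 50 bases of the RNA in capitals.
Malat1 start: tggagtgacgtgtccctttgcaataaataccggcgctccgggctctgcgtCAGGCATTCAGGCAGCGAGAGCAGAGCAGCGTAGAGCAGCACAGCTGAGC
No peak of any list touched this window, and the first peak began 482 nt from the start. The bases under the peaks were not used here.

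The peaks of Malat1 fell into 11 separate sites along the RNA, where a site is a run of peaks that overlap by at least 1 nt. PIPE-CLIP had 12 clusters in the span, Pyicoclip 4 peaks, CIMS 2 and Piranha 1. Every one of the 11 sites held a PIPE-CLIP cluster, and 7 sites were found by PIPE-CLIP alone. The other 4 sites had peaks of 2 or more lists. Over all 4617 sites of the series, 37.0% had peaks of 2 or more lists and 0.866% had peaks of all 4. Sites are numbered from the 5′ end of the RNA.

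**Figure D1:**
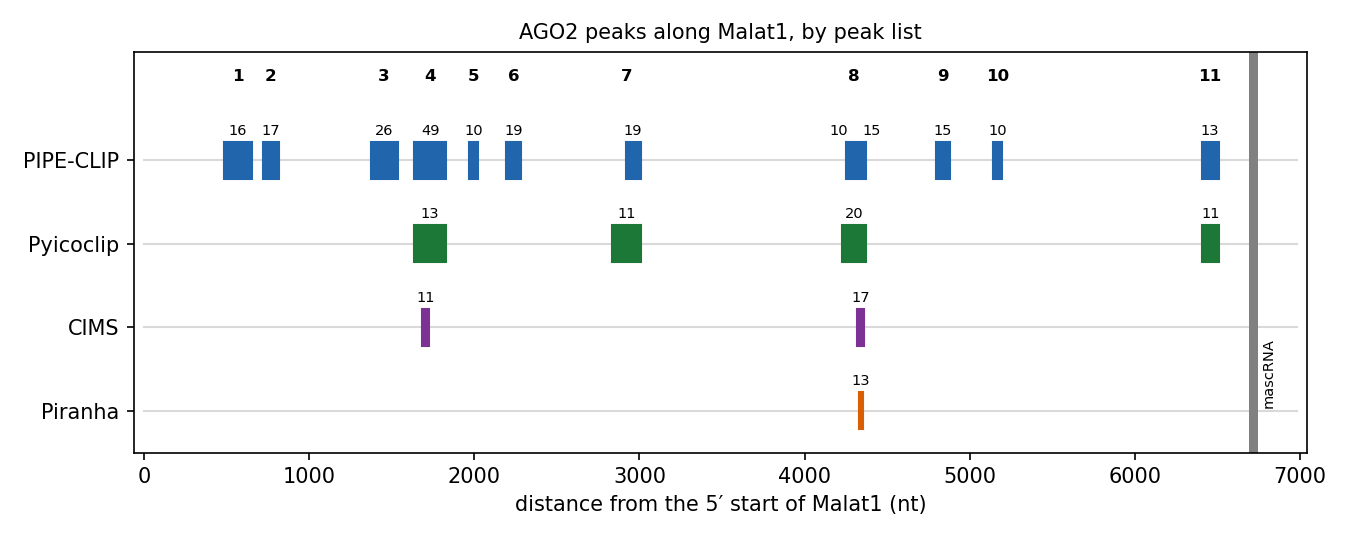
Peaks of each list along Malat1, by distance from the 5′ start of the RNA in nt. Boxes are peaks at their true width, the number above each box is the authors' score, bold numbers are the 11 sites, and the grey band is the mascRNA gene. Site 8 is the one with a box in all 4 rows.

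Site 8, past the middle of the RNA at 5798300 to 5798443, was the one Malat1 site with peaks of all 4 lists. It lay 4229 to 4372 nt from the 5′ start. The CIMS peak covered 5798314 to 5798354 with a score of 17. The Piranha peak, 20 nt wide at 5798321 to 5798340, scored 13 and lay wholly inside the CIMS peak. The Piranha peaks of the genes named here all lie on a grid of 20 nt steps, so their middles are not placed to the base. CIMS is a method that looks for bases altered by the crosslink, and its peaks here were all 41 nt wide. The middle of the Piranha peak lay about 4 nt from the CIMS centre, on its 3′ side, and the middle of the wider PIPE-CLIP cluster, 5798300 to 5798368, fell on the same base as the CIMS centre. That cluster scored 15. A second PIPE-CLIP cluster, 5798371 to 5798421 with a score of 10, did not touch the CIMS peak and was joined to the site by the Pyicoclip peak of 144 nt, which scored 20.

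Site 4, nearer to the 5′ end at 5800844 to 5801035, had peaks of CIMS, Pyicoclip and PIPE-CLIP and none of Piranha. Pyicoclip and PIPE-CLIP gave it the same 2 edges, a width of 192 nt, with scores of 13 and 49. The CIMS peak inside it, 5800949 to 5800989, scored 11. The names of CIMS peaks also carry a number m, the meaning of which is not stated in the files, and m was 3 here and 4 at site 8. Over the 169 CIMS peaks m ran from 3 to 20, with 87 peaks at 3 and 82 at 4 or more. Site 4 thus shared the lowest m with most of the list, and site 8 was above the list median of 3.

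Sites 7 and 11 had a Pyicoclip peak and a PIPE-CLIP cluster each. At site 7, 5799664 to 5799837, both had the same lowest coordinate, which is their 3′ edge on the RNA. The Pyicoclip peak was 174 nt wide against 93 nt for the cluster. They scored 11 and 19. Site 11, 5796164 to 5796269, was the one nearest to the 3′ end, with scores of 11 and 13. Of the 5 overlapping pairs of a Pyicoclip peak and a PIPE-CLIP cluster in Malat1, 3 shared at least 1 edge to the base, and in the rest of the series 229 of 683 pairs did (33.5%).

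The 7 sites of PIPE-CLIP alone were sites 1, 2, 3, 5, 6, 9 and 10. Sites 1 and 2 scored 16 and 17 and lay 64 nt apart, between 482 and 814 nt from the start. Site 3, with a score of 26, was 99 nt from site 4. Sites 5, 6, 9 and 10 scored 10, 19, 15 and 10. Of the 12 Malat1 clusters, 5 overlapped a peak of another list, which is 41.7%. The share over all PIPE-CLIP clusters was 20.8%. Of the 5, the 2 clusters of site 8 overlapped the same Pyicoclip peak. By site, 4 of 11 (36.4%) had peaks of 2 or more lists, and 37.0% of all sites did. These shares are not like for like, since all 11 Malat1 sites held a PIPE-CLIP cluster and some sites of the series held none. All 4 Pyicoclip peaks, both CIMS peaks and the Piranha peak overlapped another list, where 83.3% of the whole Pyicoclip list, 169 of 169 CIMS peaks and 99.9% of the Piranha list did. The 4 Pyicoclip peaks were 103 to 192 nt wide, against a list median of 29 nt. The part of width in their overlaps was not tested.

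Most sites lay towards the 5′ end. With the span divided into 3 equal parts, the 5′ part held 6 sites, the middle part 2 and the 3′ part 3. Of those in the 5′ part, sites 1, 2, 3, 5 and 6 were of PIPE-CLIP alone. Sites 4, 7, 8 and 11, with peaks of 2 or more lists, were spread along the RNA. Their middles lay at 24.8%, 41.8%, 61.6% and 92.4% of the span from the 5′ start. Single peaks numbered 8, 7 and 4 in the same order, and 5 of the 7 peaks in the middle part belonged to site 8. Gaps between neighbouring sites ran from 64 to 1220 nt with a median of 343.5 nt. The 2 widest gaps lay between sites 7 and 8, at 1220 nt, and between sites 10 and 11, at 1208 nt. Site widths ran from 53 to 192 nt with a median of 106 nt. Peaks covered 1335 nt, or 19.1% of the span. By list, PIPE-CLIP covered 17.6% of the span, Pyicoclip 8.78%, CIMS 1.17% and Piranha 0.286%.

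The end of the RNA that is cut by RNase P was free of peaks. The mascRNA gene, Mascrna, lies inside the span at 5795924 to 5795981, and 0 peaks of any list overlapped it. The nearest peak, at site 11, was 182 nt away on its 5′ side. The annotated span runs on for 234 nt past mascRNA and was free of peaks there too, so the last 474 nt of the span held none. A score below 10 is not in any list, so weaker signal there was not tested.

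The authors' score ranks peaks within a list and has no stated unit. The 12 PIPE-CLIP clusters scored between 10 and 49 with a median of 15.5, against a list median of 14. Of these, 8 were above the list median, and 44.2% of the whole list was. Site 4 was at the 97.7th percentile, site 3 at the 89.6th and sites 6 and 7 at the 77.1st. The lowest score in the list, 10, was that of 3 of the 12 clusters, at sites 5, 8 and 10, and of 14.1% of the whole list. Of the Pyicoclip peaks, 2 of 4 were above their list median of 12 (45.8% of the list), with site 8 at the 87.2nd percentile and site 4 at the 58.7th. The Piranha peak was above its list median of 12 (41.6% of the list), at the 63.4th percentile. Neither CIMS peak was above its list median of 27 (48.5% of the list), with percentiles of 37.9 at site 8 and 12.1 at site 4.

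The lists thus ordered the Malat1 sites differently. PIPE-CLIP put site 4 far above site 8, at 49 against 15. It had a single cluster of 192 nt at site 4. At site 8 it had 2 clusters, of 69 and 51 nt, and 15 is the higher of their scores. The part of cluster width in this order was not tested. Pyicoclip and CIMS put site 8 above site 4, at 20 against 13 and at 17 against 11. With no value per library, it cannot be said whether these differences are larger than the spread between libraries. The amount of Malat1 RNA was not measured in the files, so more RNA and more AGO2 per RNA cannot be told apart. No control library was included, so how much of the peak signal is AGO2 binding was not tested.

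**Figure D2:**
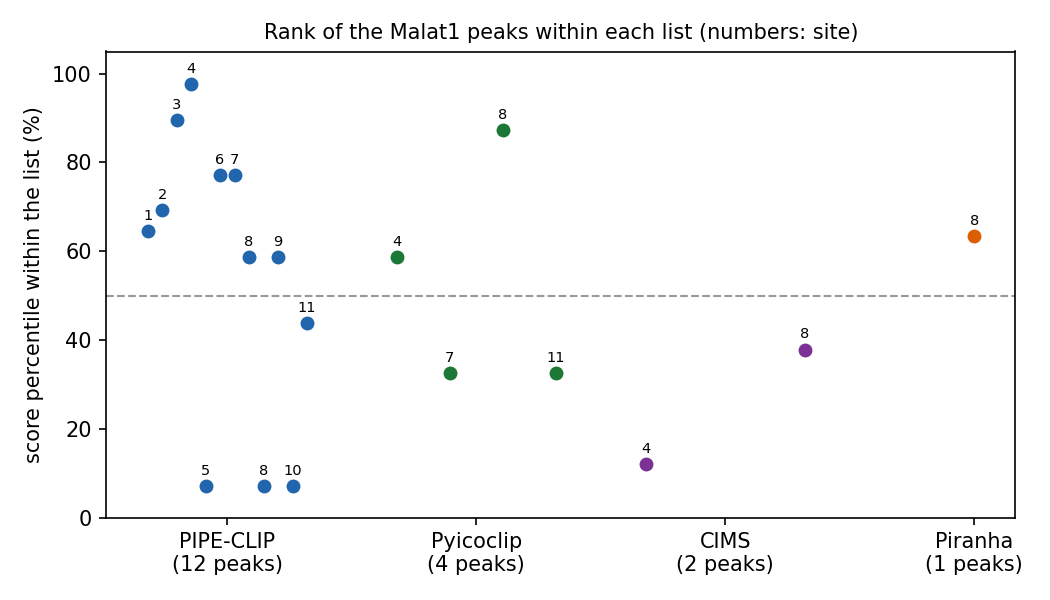
Score percentile within its own list, in percent, of each of the 19 Malat1 peaks, labelled by site. The dashed line is the middle of each list. Site 4 leads in PIPE-CLIP at 97.7 and site 8 leads in Pyicoclip and CIMS. Piranha has 1 peak, at site 8, and so no order of sites.

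PIPE-CLIP numbers its clusters in order of position on each of the 22 chromosomes in its list, and the numbers reach 222973 for 3257 clusters listed. From the first to the last Malat1 cluster the numbers ran from 89090 to 89133, a stretch of 44 numbers, of which 12 are in the list and 32 are not. The 12 are 27.3% of the stretch. For 124 other genes with at least 5 listed clusters, the median of the same share was 22.5%, and 50 of them had a share at least as high as Malat1. The numbers not in the list have no stated position, strand or score.

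All 19 Malat1 peaks were on the minus strand, the strand of the Malat1 RNA itself, so none was antisense. The strand of a gene was taken from the RefSeq promoter table, and peaks in exactly 1 gene span of known strand were counted. In PIPE-CLIP 12 of 12 Malat1 clusters were on the gene strand, and 97.8% of all such clusters in the list were. For PIPE-CLIP the count was 1883 of 1902 in other minus-strand genes (99.0%) and 204 of 232 in plus-strand genes (87.9%). In Pyicoclip it was 4 of 4 peaks, against 69.0% over the list, in CIMS 2 of 2 against 69.6%, and in Piranha 1 of 1 against 57.0%. In other long non-coding RNA genes the share was 24 of 34 clusters in PIPE-CLIP (70.6%, 95% Wilson interval 53.8 to 83.2) and 32 of 69 peaks in Pyicoclip (46.4%, 35.1 to 58.0). It was 33 of 71 in Piranha (46.5%, 35.4 to 58.0) and 2 of 4 in CIMS. These genes lie on either strand. The long non-coding RNA gene Neat1 had no strand from the promoter table, so its 7 PIPE-CLIP clusters are not among the 34. The intervals cover counting error only and treat peaks as independent, which overlapping peaks are not.

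The lists differ in how much they see of each strand. Of all PIPE-CLIP clusters, 87.0% were on the minus strand, with 1902 clusters in other minus-strand genes and 232 in plus-strand genes. Pyicoclip had 432 and 462 peaks in those gene groups, and its minus-strand share was 48.5%, with 50.2% in Piranha and 39.1% in CIMS. Malat1 is a minus-strand gene, and its PIPE-CLIP counts stand beside those of few plus-strand genes. The part of this imbalance in the 12 clusters of Malat1 was not tested.

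**Figure D3:**
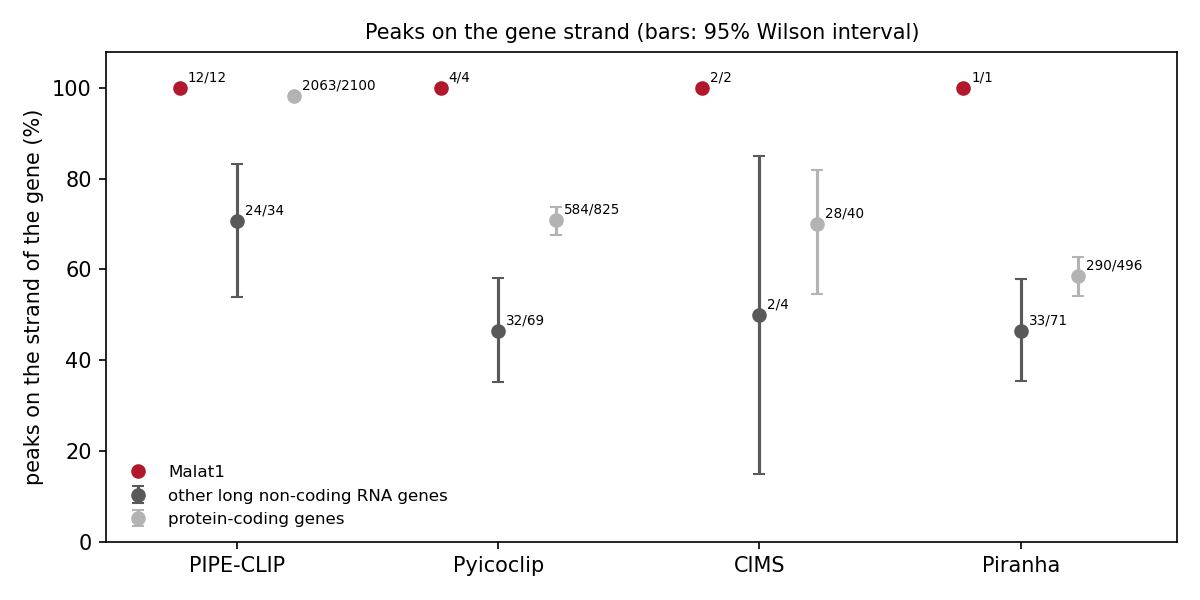
Percent of peaks on the strand of their gene, by list, for Malat1 (red), other long non-coding RNA genes (dark grey) and protein-coding genes (light grey). Labels give peaks on the gene strand over all peaks counted, and bars are 95% Wilson intervals, not drawn for Malat1, whose peaks overlap; every Malat1 point is at 100%.

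Among long non-coding RNA genes, Malat1 held the most peaks. Of 12731 such genes annotated, 264 had at least 1 peak, which is 2.07%, and their median was 2 peaks with 91 genes at 1. After the 19 of Malat1 came Gm20716 and Gm44505 with 10 each and Gm36876 and Gm39165 with 9. A peak was counted for each gene span that held its midpoint, on either strand, so peaks of overlapping genes are included. All long non-coding RNA spans held 565 peaks. Outside Malat1, those in exactly 1 gene span of known strand were 34 in PIPE-CLIP, 69 in Pyicoclip, 71 in Piranha and 4 in CIMS. Peaks in all 4 lists were found in 4 of the 264 (1.52%), where the share over the 2583 genes of any type with a peak was 1.28%. The others were Gm36876, Gm19951 and Gm40527, whose peaks fell into 1, 3 and 2 sites. Without PIPE-CLIP, Malat1 had 7 peaks, as many as Gm36876 and Gm51018, and no long non-coding RNA gene had more.

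Per length of gene span, Malat1 had 2.72 peaks and 1.58 sites per kb. Its rank was 3 by peaks per kb among the 264 genes, and 2 by sites per kb among the 22 with at least 3 sites, after Gm51018 with 2.20. Over all 2583 genes, 7 had more peaks and 8 had more sites. Of those 8, Peg10, a retrotransposon-derived imprinted gene, had the shortest span, 13212 nt, with 0.984 sites per kb. Hsp90ab1, which encodes the chaperone HSP90 beta, had as many sites as Malat1, 11, in a shorter span and thus 2.01 per kb. Gene spans include introns, so a value per kb of span is not one per kb of mature RNA.

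**Figure D4:**
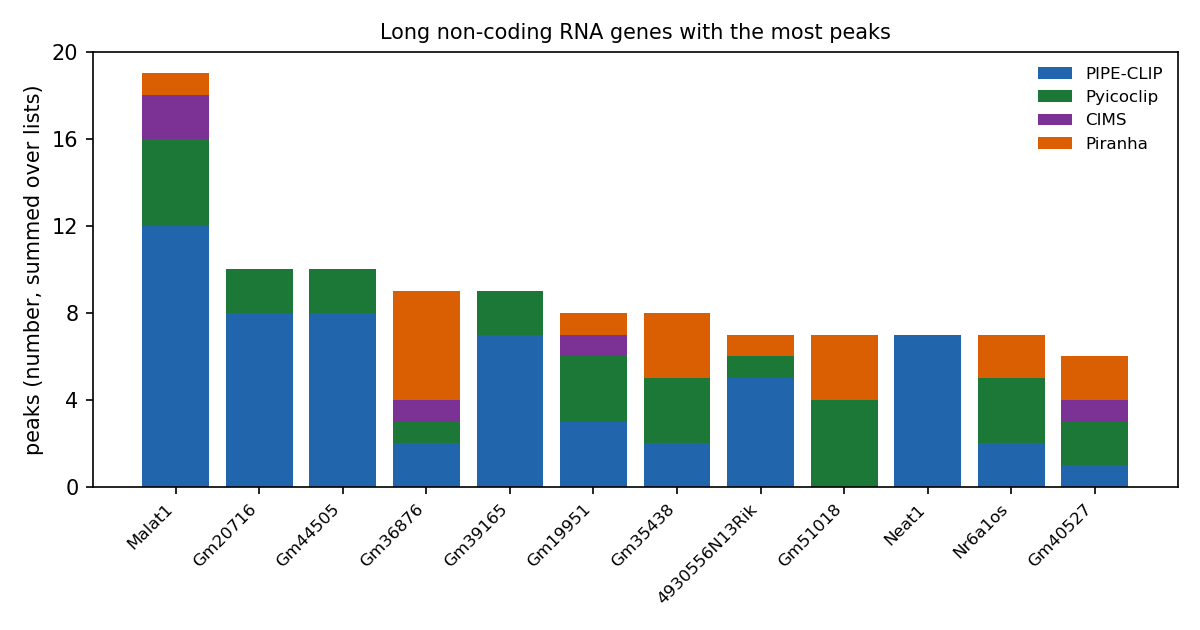
Number of peaks, summed over the 4 lists and coloured by list, in the spans of the 12 long non-coding RNA genes with the most peaks. Peaks of genes that overlap these spans are included. Malat1 stands first with 19, and Neat1, with 7, has PIPE-CLIP clusters only.

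Neat1, the neighbour of Malat1 and the scaffold RNA of paraspeckles, held 7 PIPE-CLIP clusters and no peak of another list. Its span, 5824708 to 5845480, begins 22035 nt beyond the 5′ start of Malat1. The clusters scored 16, 10, 21, 16, 10, 14 and 10, all on the minus strand, and none overlapped another list. That gave 0.337 sites per kb in Neat1, while Malat1 had 1.58. The nearest peak on the 5′ side of the Malat1 span was a Neat1 cluster 28359 nt away with a score of 16. Among other near spans, Znrd2 had 1 PIPE-CLIP cluster, and Ltbp3, Fam89b, Ehbp1l1, Frmd8, Slc25a45, Tigd3 and Dpf2 had none. No peak straddled an end of the Malat1 span.

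Of a list of 24 long non-coding RNAs, most of them nuclear or hosts of small RNAs, 9 had a peak, and the median of the list was 0 peaks. The share of all long non-coding RNA genes with a peak was 2.07%, as above. In 6 of the 9, most or all peaks lay in small RNA genes within the span: both peaks of Mirg in Mir541, both of Mir17hg in Mir92-1, both of Gas5 and 4 of 5 of Snhg1 in small nucleolar RNA genes, 2 of 3 of Snhg12 in Snora44, and the single peak of Dleu2 in Mir16-1. Malat1, Neat1 and Norad had 0 peaks in small RNA genes. Norad, a cytoplasmic RNA that binds Pumilio proteins, had 1 PIPE-CLIP cluster with a score of 10, which also lay in Gm14170. Xist, Kcnq1ot1, Meg3, H19 and Tug1 were among the 15 with no peak.

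Of 20 genes of nuclear speckles and pre-mRNA processing, 5 had a peak, where 9.77% of protein-coding genes did. Each of the 5 had a single peak, with a list median of 0. Son, a scaffold protein of speckles, had a Pyicoclip peak with a score of 11. Srrm1, Acin1 and Srsf11, which take part in splicing, and Clk1, a kinase of splicing factors, each had a PIPE-CLIP cluster, with scores of 15, 11, 10 and 17. With a single peak each, none of the 5 could have peaks in 2 or more lists.

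Of 20 genes for the processing, modification and binding of Malat1, 3 had a peak, where 9.77% of all protein-coding genes did, again with a list median of 0. All but Rpph1 encode proteins. Rpph1, the RNA component of RNase P, had 7 peaks in 2 sites on chromosome 14, all on the minus strand. They comprised 2 PIPE-CLIP clusters scoring 28 and 44, 2 Piranha peaks scoring 13 and 12, and 3 Pyicoclip peaks scoring 16, 16 and 11, of which the last lies inside another. Rpp30, a protein subunit of RNase P, had a Piranha and a Pyicoclip peak, each scoring 14. Tardbp, which encodes the RNA-binding protein TDP-43, had PIPE-CLIP clusters scoring 11 and 20.

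Of 9 genes of microRNA families linked to MALAT1 in human cells, 1 had a peak, and 4.23% of all microRNA genes did. That gene was Mir101a on chromosome 4, with a Pyicoclip and a Piranha peak, each scoring 10, the lowest score in any list. Both peaks also lay in the span of E130102H24Rik. The Pyicoclip peak, 101346954 to 101346980, covered all 21 nt of the 3p arm. The Piranha peak, placed on the grid of 20 nt steps, covered 4 nt of it. Neither touched the 5p arm. Both arms are shown since the peaks tell them apart, with the seed, bases 2 to 8, in capitals (RefSeq, GRCm38.p6).
mmu-miR-101a-3p: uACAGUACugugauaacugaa
mmu-miR-101a-5p: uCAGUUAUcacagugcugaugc
The genes of miR-9, Mir9-1, Mir9-2 and Mir9-3, had no peak, nor had Mir101b, Mir217, Mir145a, Mir204 or Mir200c. Whether the Malat1 peaks hold matches to any of these seeds was not tested.

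The genes with counts per list nearest to those of Malat1 were Slc38a2, Lin28a, Zbtb7a, Ccng2 and Gigyf1, among the 33 genes with peaks in all 4 lists. Nearness is the sum over the 4 lists of the difference in the number of peaks, which was 6, 7, 8, 9 and 9. Slc38a2, an amino acid transporter, had 10 clusters of PIPE-CLIP and 2, 1 and 2 peaks of Pyicoclip, CIMS and Piranha. Lin28a, which blocks the maturation of let-7, had 6, 4, 1 and 1 in the same order. All 5 are protein-coding. In Malat1 4 of 11 sites (36.4%) had peaks of 2 or more lists, in Slc38a2 2 of 10 (20.0%) and in Lin28a 3 of 6 (50.0%). The share was 71.4% in Zbtb7a, a transcriptional repressor, and 75.0% both in Ccng2, the gene of cyclin G2, and in Gigyf1, a translational repressor. Malat1, Slc38a2 and Lin28a are minus-strand genes and the other 3 are plus-strand genes. The highest PIPE-CLIP score was 49 in Malat1, 25 in Slc38a2, 144 in Lin28a, 48 in Zbtb7a, 53 in Ccng2 and 24 in Gigyf1.

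**Figure D5:**
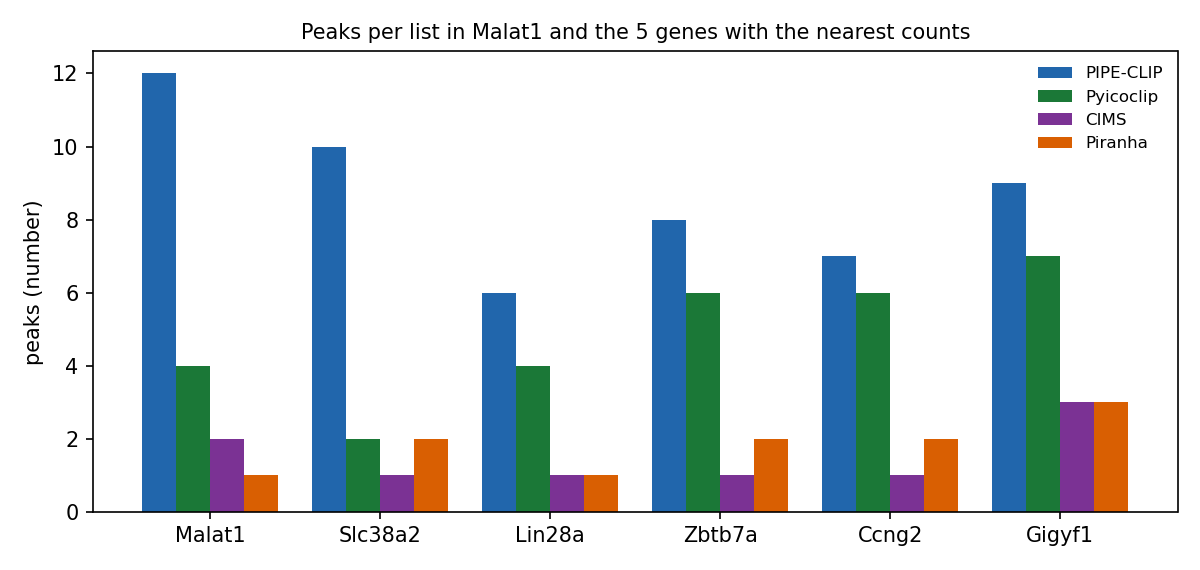
Number of peaks in each list for Malat1 and the 5 genes with the nearest counts. PIPE-CLIP clusters are the most numerous in every gene shown, with 12 in Malat1 and 6 to 10 in the others.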

How the data were processed

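Peak lists of 3 AGO2 HITS-CLIP libraries were analysed as 1 group. The tools named per the submitters' processing notes are Novoalign and cutadapt, with the build mm10. Their versions, the settings of the callers and the way of pooling the reads are not given in those notes or in the files. Each deposited score is the authors' own value per peak, from 10 upwards, with no stated unit, used only within its list.

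Gene spans and types came from a RefSeq table of GRCm38.p6 (49997 genes), the assembly that mm10 names, and gene strands from its promoter table, which gave 1 strand for 27025 genes. Peaks were assigned by midpoint and called shared from 1 nt of overlap on the same strand (peaks with no strand match either); sites were merged with strand ignored. All 91 entries of the gene lists matched. Named genes were Malat1, list members with a peak, 5 neighbours on each side and the 5 genes nearest in counts; others were named after their values were seen. A gene that meets these rules is not reported here. The members and lists were chosen with earlier results of these data known. Values are descriptions and no hypothesis was tested. In marker lists, 2 of 9 pluripotency genes (Lin28a, Pou5f1), 1 of 5 neural genes (Map2) and 0 of 4 muscle genes had a peak, against 9.77% of all protein-coding genes, and the Map2 cluster was on the strand opposite to the gene. This is no measure of expression. Intervals are 95% Wilson intervals. Planted sites, overlaps and assignments in simulated data were recovered in 5 of 5 checks. Python 3.11.15 with numpy 2.4.6, pandas 2.3.3, scipy 1.17.1 and matplotlib 3.10.9 were used.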

Additional observations from a re-analysis of the deposited data

How the results depend on the processing

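Of 42 alternatives, 30 left the Malat1 values close to those reported: counts and ranks within 1.5 times, and percentages within their 95% Wilson interval. That interval serves only as a cut-off, since neighbouring nt and a median percentile are not independent counts. Some alternatives could not change the value. All 19 peaks lay wholly inside the span on the minus strand, and the CIMS and Piranha peaks lay inside wider peaks of other lists. The tally is thus no measure of robustness. With peaks at or above the median score of their list alone, 11 of 19 peaks and 2 sites in 2 or more lists were left. Without PIPE-CLIP, 7 peaks, 4 sites, 2 of them in 2 or more lists, and 8.78% of the span covered remained. Without Pyicoclip, 2 sites had peaks of 2 or more lists and 17.6% of the span was covered. Without Pyicoclip, and likewise without PIPE-CLIP, 5 peaks overlapped another list, in place of 12. By peaks per kb the rank among long non-coding RNA genes was 3 in place of 1. Ranked against clusters in long non-coding RNA genes, the median PIPE-CLIP percentile was 63.5 in place of 61.6, an alternative chosen after seeing the data, as were the minus-strand ranking, the gene-strand ranking and the leaving out of lists for overlaps. Leaving out a library was not possible, since no list is tied to 1. No paired analysis was possible because all libraries form 1 group.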
